A study of Homo sapiens with 28 samples.

Results

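The D-type cyclin genes CCND1, CCND2 and CCND3, together with MYEOV, the gene next to CCND1 on 11q13, were described by every region of the ATAC-seq count table whose nearest annotated start belonged to 1 of the 4 genes. This gave 36 of 154985 regions, 10 for CCND1, 8 for CCND2, 7 for CCND3 and 11 for MYEOV, of which 13 lay within 1 kb of a start and are called promoter regions, and 23 lay farther away and are called distal. ATAC-seq marks DNA that a transposase can reach, so a high count marks open chromatin. The series held 28 libraries of human myeloma cell lines, namely 22 untreated lines with 1 library each, and 6 of these lines (Karpas620, KMS27, L363, MM1S, OPM2 and RPMI8226) also assayed on day 3 of 10 µM lenalidomide, a drug that binds cereblon and directs the degradation of the lymphoid factors IKZF1 and IKZF3. The untreated libraries had no drug, and the labels name no vehicle. All are established lines grown in culture, and with 1 library per line and condition there was no error within a line beyond counting error.

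D-type cyclins bind CDK4 and CDK6, and the complexes phosphorylate RB1, which frees E2F factors to drive entry into S phase. In myeloma, 1 of the 3 genes is commonly raised in expression. The t(11;14) translocation brings CCND1 under immunoglobulin heavy chain enhancers, and lines with t(14;16) express MAF, for which CCND2 is a known target. MYEOV was named for its expression in a subset of myeloma lines with 11q13 rearrangement. The labels do not give translocations. From general knowledge of these lines, Karpas620, KMS12BM, KMS12PE, KMS21BM, KMS27 and U266 were set down as carrying t(11;14) (6 lines, in U266 as a cryptic insertion, with KMS12BM and KMS12PE from the same patient), KMS11, KMS18, KMS26, KMS28, KMS34, LP1 and OPM2 as carrying t(4;14) (7 lines, of which KMS11 also carries t(14;16) and is shown with t(4;14)), MM1S and OCIMY5 t(14;16) alone (2 lines), RPMI8226 t(16;22) and L363 t(20;22). H1112, KMS20, PCM6, PE1 and XG-6 were put in no set (5 lines). The values of these sets are a description without a test.

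Counts are given as CPM, each count scaled to the library's total over all regions (identical to the RPM that the authors deposited), with the 95% Wilson interval where 1 library is read closely. Totals ran from 1599857 to 5564534 counts in the untreated libraries and from 2168680 to 4248017 with lenalidomide. The limit that a count of 0 allows (3 counts) lay between 0.539 and 1.88 CPM in the untreated libraries. Intervals and limits cover counting error only. H1112 was the deepest library and had a peak in 58983 regions, the most of the 22. Promoter regions of plasma cell genes were open in most lines, with a peak in all 22 at TNFRSF17 (the receptor BCMA) and PRDM1 and in 18 to 21 at SDC1, XBP1, IRF4 and MZB1. Those of PAX5, MS4A1, CD3E and CD14, genes of B cells, T cells and monocytes, had a peak in 1 to 3 lines, while CIITA had one in all 22. No promoter region was read for CD3D, CD2, LYZ or CSF1R.

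Of the regions that the results below turn on, 4 are shown with their sequence from the GRCh37 reference, forward strand, whole for the 210 bp CCND1 intronic region and as the central 300 bases of the others. None of the printed windows overlapped an annotated UTR. Capitals mark matches, on either strand, to GGGCGG (the core bound by SP1) or to the interferon response motif bound by IRF factors.
CCND1 intron, chr11:69461584-69461793, where the lines with known t(11;14) differed from the others: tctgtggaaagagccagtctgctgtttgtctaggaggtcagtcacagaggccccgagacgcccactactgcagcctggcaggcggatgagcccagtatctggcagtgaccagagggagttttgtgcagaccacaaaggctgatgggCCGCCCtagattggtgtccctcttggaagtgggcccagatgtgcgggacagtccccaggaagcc
CCND1 upstream, chr11:69453815-69454114, higher after lenalidomide: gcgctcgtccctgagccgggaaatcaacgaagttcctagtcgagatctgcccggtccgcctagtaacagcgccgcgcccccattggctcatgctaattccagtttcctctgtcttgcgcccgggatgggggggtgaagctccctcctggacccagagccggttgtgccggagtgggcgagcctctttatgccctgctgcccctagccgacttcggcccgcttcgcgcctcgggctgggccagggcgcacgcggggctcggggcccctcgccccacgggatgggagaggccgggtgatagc
CCND2 upstream, chr12:4381233-4381532, the CCND2 region with the most counts: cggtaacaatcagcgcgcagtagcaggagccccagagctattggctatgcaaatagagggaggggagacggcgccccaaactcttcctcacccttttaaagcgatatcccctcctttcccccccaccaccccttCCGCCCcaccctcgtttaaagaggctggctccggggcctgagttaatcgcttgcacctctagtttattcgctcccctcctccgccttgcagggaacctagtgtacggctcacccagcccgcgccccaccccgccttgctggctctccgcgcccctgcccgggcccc
CCND3 intron, chr6:42013469-42013768, higher after lenalidomide: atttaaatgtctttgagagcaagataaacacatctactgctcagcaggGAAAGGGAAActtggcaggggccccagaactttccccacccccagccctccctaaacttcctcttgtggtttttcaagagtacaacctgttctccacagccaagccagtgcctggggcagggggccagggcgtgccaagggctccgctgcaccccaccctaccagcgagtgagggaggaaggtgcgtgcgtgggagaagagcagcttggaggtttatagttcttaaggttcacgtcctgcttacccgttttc

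The windows differed in composition. GC content was 68.3% with 28 CpG in the CCND1 upstream window and 63.3% with 19 CpG in the CCND2 window, against 55.3% with 7 CpG in the CCND3 window. GGGCGG matched once each in the CCND1 intron and the CCND2 window, a match that 12.8% of all regions hold in a central window of 210 bases and 17.5% in one of 300 bases. The IRF motif matched once, in the CCND3 window, and 9.60% of central windows of 300 bases hold it. The CCND1 upstream window held no match to any motif searched, and none of the windows held the cyclic AMP response element, AP-1, Ikaros core, E2F or NF-kB motifs in the forms searched. The searched letters were TGACGTCA and TAACGTCA for the cyclic AMP response element, TGANTCA for AP-1, TGGGAA for the Ikaros core and TTTCGCGC and TTTGGCGC for E2F. Among the 108380 regions of at least 300 bases, the central window held them in 0.542% and 0.185%, 14.5%, 21.7%, and 0.114% and 0.287%, in that order, and the NF-kB motif in 0.968%.

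Across the 22 untreated lines the 3 cyclin genes differed in how much they varied. Summed over its regions, CCND3 ran from 68.1 CPM in PE1 to 126 CPM in KMS20 with a median of 94.5 CPM, a 1.85-fold range. CCND1 ran from 9.65 CPM in KMS11 to 101 CPM in H1112 with a median of 36.2 CPM, a 10.4-fold range. CCND1 regions with a peak in H1112 alone held 3.23, 10.1, 4.13 and 4.49 CPM of that line's sum. The top of the CCND1 range thus rests in part on regions that entered the table through H1112. CCND2 ran from 3.57 CPM in KMS21BM to 134 CPM in PCM6 with a median of 74.1 CPM, a 37.5-fold range. The low end rests on 6 counts in KMS21BM (interval 1.64 to 7.79 CPM), and without that line the CCND2 range was 13.8-fold. MYEOV, which shares its part of chromosome 11 with CCND1, ran from 25.7 CPM in KMS11 to 105 CPM in MM1S with a median of 79.0 CPM. The lines differ in copy number, which was not removed. As a stand-in, the median ratio of regions within 5 Mb to their across-line median ran from 0.397 (KMS20) to 1.29 around CCND1 and from 0.440 (KMS21BM) to 1.74 around CCND2. Scaling by it raised the CCND1 sum of KMS20 from 19.8 to 49.8 CPM and the CCND2 sum of KMS21BM from 3.57 to 8.11 CPM. The ranges so scaled were 15.3-fold for CCND2, 11.5-fold for CCND1 and 1.73-fold for CCND3.

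Per kb of its regions, CCND3 was the highest of the 3 cyclin genes in 10 lines, CCND2 in 8 and CCND1 in 4. The 4 lines led by CCND1 were Karpas620, KMS12BM, KMS12PE and H1112. In KMS12BM, CCND1 stood at 25.9 and CCND3 at 25.8 CPM per kb, and in Karpas620 at 18.95 and 18.6. The intervals of the highest and the next gene overlapped in 10 of the 22 lines, among them 3 of the 4 led by CCND1, so the order in those lines lay within counting error. In H1112 they did not overlap, though its CCND1 sum includes regions with a peak in that line alone. With the local scaling the leader changed in 9 lines, and CCND3 led in 11, CCND2 in 9 and CCND1 in 2 (H1112 and KMS21BM), Karpas620, KMS12BM and KMS12PE going to CCND3. LP1, OPM2 and U266, where the intervals had not overlapped, changed leader too. The summed CPM of CCND2 was above that of CCND1 in 16 of the 22 lines. It was so in 10 of the 11 lines with another known translocation, with KMS28 the exception, in 2 of the 6 lines with known t(11;14), namely KMS27 and U266, and in 4 of the 5 lines put in no set, with H1112 the exception.

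**Figure D1:**
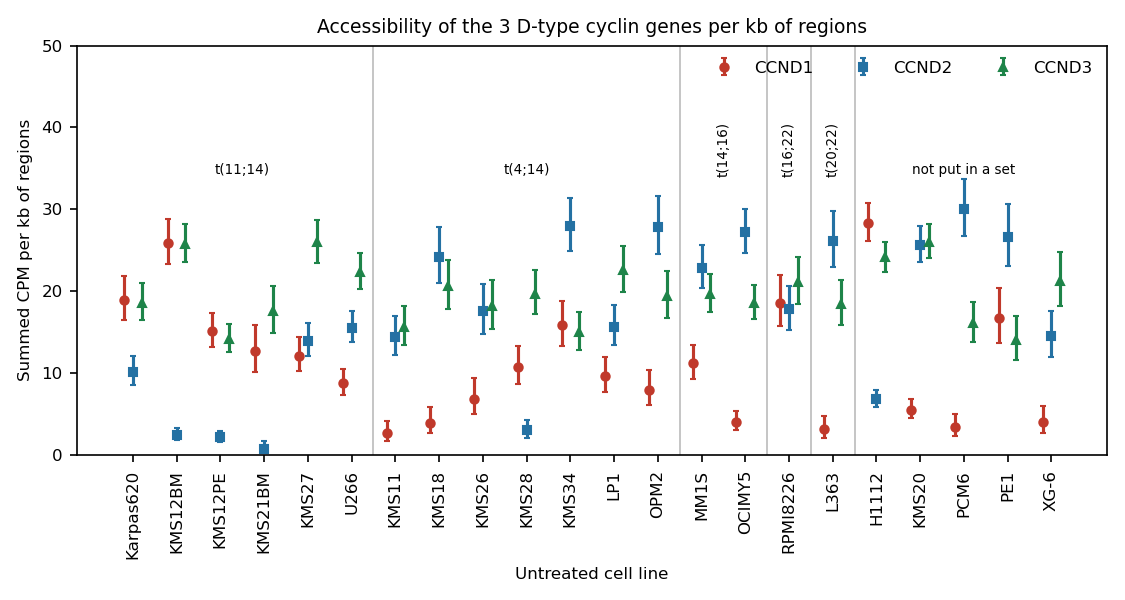
Summed CPM of each cyclin gene per kb of its regions (y axis, linear) in the 22 untreated lines (x axis), with 95% Wilson intervals for counting error. CCND3 stays between 14.1 and 26.1 CPM per kb, while CCND2 runs from 0.801 in KMS21BM to 30.0 in PCM6 and CCND1 from 2.72 in KMS11 to 28.3 in H1112.

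Peaks at the 36 regions were shared between lines to different degrees. A peak was listed in all 22 untreated lines at 2 regions, both of CCND3, against 3.98% of all regions in the table. A peak was listed in 1 to 3 lines at 17 of the 36 regions, against 57.6% of all regions, and in no untreated line at 5, against 8.06%. H1112 was the only line with a peak at 4 of the CCND1 regions, 75.8, 53.1, 10.8 and 0.3 kb upstream of the start, and its depth and number of peaks bear on such counts in a way that was not tested.

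**Figure D2:**
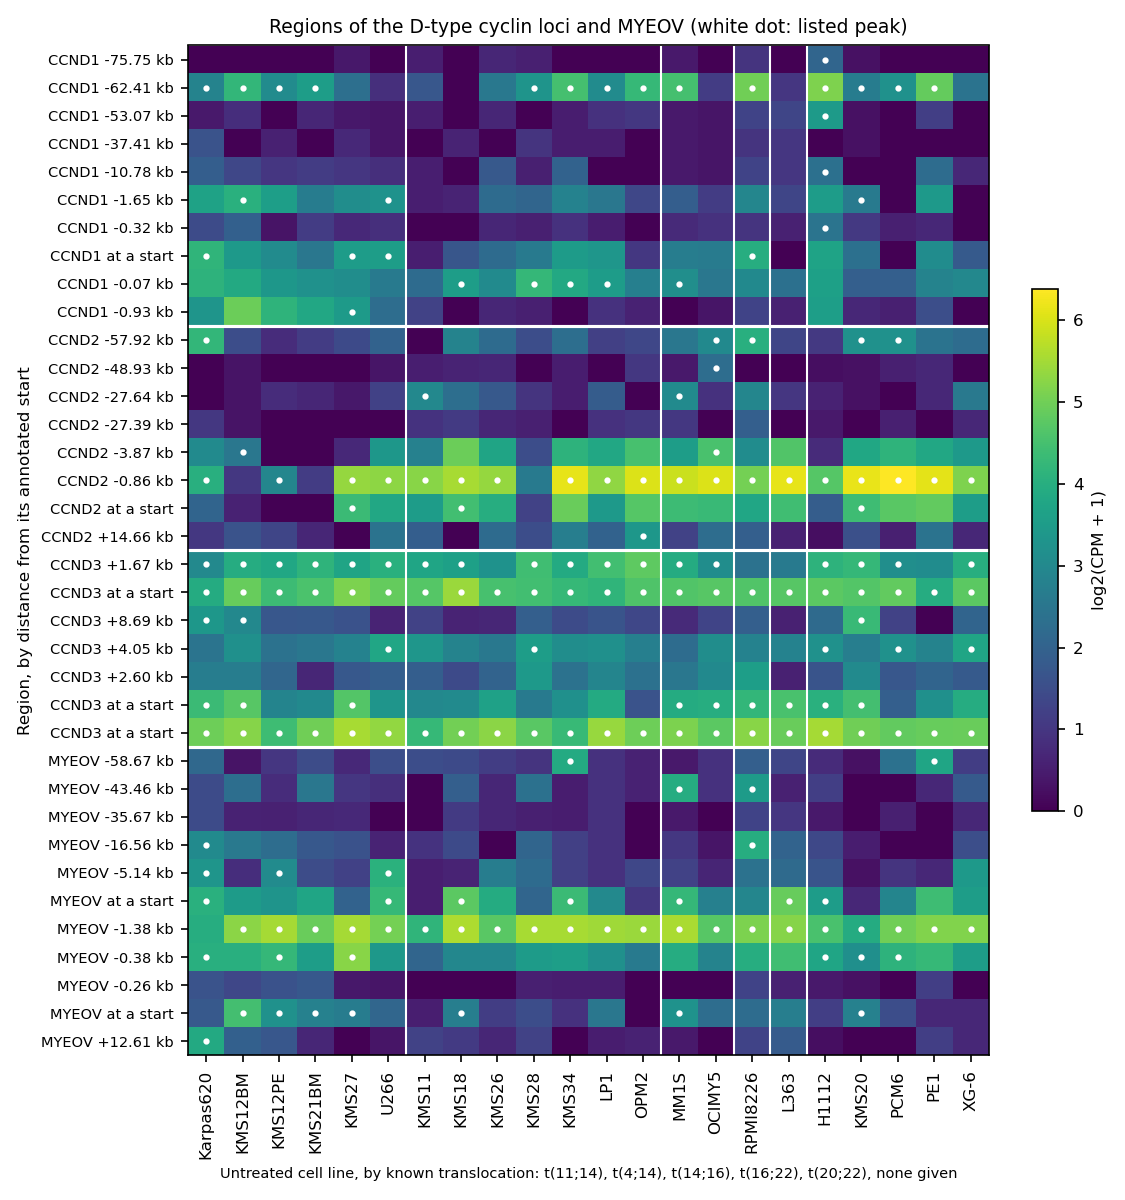
Accessibility as log2(CPM + 1) of the 36 regions (rows, by gene and signed distance from the annotated start in kb) in the 22 untreated lines (columns, ordered by known translocation); a white dot marks a listed peak. The CCND2 row at -0.86 kb is lowest in KMS12BM (1.05 CPM), KMS21BM (1.19), KMS28 (5.10) and KMS12PE (6.62), and the last CCND1 row is highest in the lines with known t(11;14), where it runs down to 3.83 CPM in U266, and in H1112.

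At CCND1, which encodes cyclin D1, the intronic region at chr11:69461584-69461793, 931 bp upstream of the start of a short transcript, set the lines with known t(11;14) apart from the others. In those lines it held 30.0 CPM in KMS12BM (interval 25.0 to 36.0), 16.8 in KMS12PE, 13.1 in KMS21BM, 10.1 in KMS27, 9.02 in Karpas620 and 3.83 in U266 (2.28 to 6.42). In the 11 lines with another known translocation it ran from 0 to 1.42 CPM with a median of 0.51, the highest being RPMI8226 (0.482 to 4.17). The values of the sets did not overlap, although the counting intervals of U266 and RPMI8226 did. H1112, which was put in no set, held 10.96 CPM (8.53 to 14.1), and the other lines in no set held 0 to 1.88 CPM. It was the only 1 of the 36 regions with all known t(11;14) lines above the other known lines, against 0.049% of all regions, 76 in number. The peak table lists a peak there in KMS27 alone, a line with known t(11;14), and in no other of the 28 libraries. The region thus entered the table through the set in which it was higher. The 0.049% share is not limited to regions that entered in this way.

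At 2 regions past the 3′ end of CCND1 the values differed in the same way. These 2 regions belong to none of the 4 genes, since their nearest start is that of ORAOV1. They were picked from the regions near CCND1 because their values did not overlap between the sets, so that difference follows from the choice. At chr11:69469956-69471433 the lines with known t(11;14) held 21.05 to 107 CPM, led by KMS12BM and Karpas620 (89.2 CPM), and the other known lines 0.51 to 5.67 CPM. H1112 held 19.9 CPM. At chr11:69469377-69469603 the ranges were 2.73 to 28.9 CPM and 0 to 1.73 CPM, with 6.29 CPM in H1112. Of 40 regions within 500 kb of CCND1 that belong to none of the 4 genes, these 2 did not overlap between the sets. The share over all regions was 0.049%. In the same direction, 0 of 52 such regions at CCND2 and 1 of 74 at CCND3 did not overlap. Among the untreated lines, a peak was listed at the larger region in 3 and at the smaller in 1, all with known t(11;14). These regions thus also entered the table through the set in which they were higher.

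**Figure D3:**
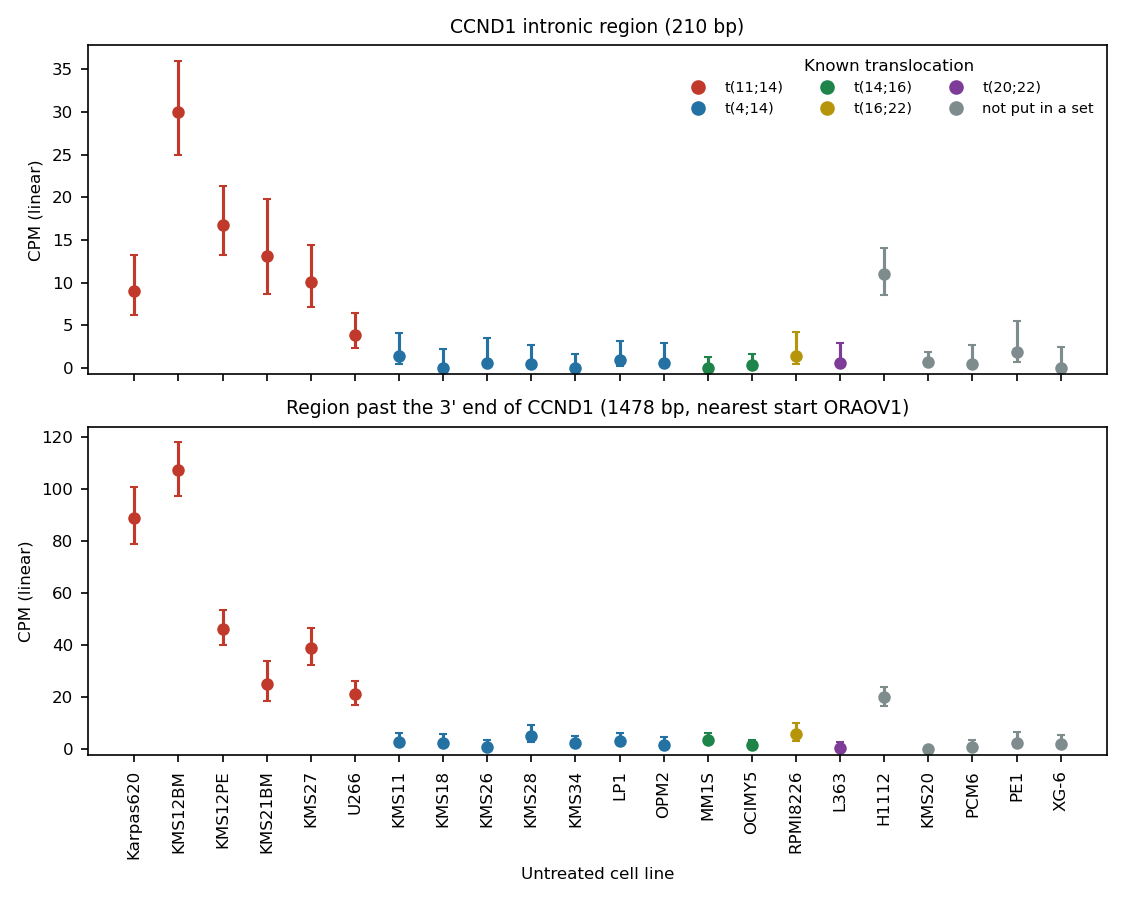
CPM (y axis, linear) of the CCND1 intronic region (top) and of the 1478 bp region past its 3′ end (bottom) in each untreated line (x axis), coloured by known translocation, with 95% Wilson intervals for counting error. The 6 lines with known t(11;14) hold 3.83 to 30.0 CPM in the top panel and 21.05 to 107 CPM in the bottom panel, and H1112 lies among them at the top and just under them at the bottom.

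The other CCND1 regions overlapped between these sets. The region at the gene's start, chr11:69455558-69456170, over exon and UTR, held 4.76 to 16.999 CPM in the lines with known t(11;14) and 0 to 14.6 CPM in the other known lines, with medians of 10.2 and 5.10. The promoter region with the most counts, chr11:69457932-69458409, held 2.79 CPM in PCM6 to 18.1 CPM in KMS28, with a median of 7.55 over the 22 lines, and its peaks were listed in 5 lines, none with known t(11;14). At chr11:69453726-69454204, 1.65 kb upstream, the lines with known t(11;14) held 5.36 to 15.5 CPM and the other known lines 0.46 to 6.61. KMS21BM was the lowest of the former and the only one below the highest of the latter. The lack of overlap without it (at least 7.76 against at most 6.61 CPM) thus follows from leaving that line out. The region 10.8 kb upstream held 0 to 4.13 CPM with a median of 0.92.

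The far upstream region of CCND1, 62.4 kb from the start, varied widely, and its values overlapped between these sets. It held 0 CPM in KMS18 to 34.1 CPM in H1112 with a median of 7.38, and a peak was listed in 14 lines. RPMI8226 (30.7 CPM) and PE1 (28.1 CPM) followed H1112, while KMS12BM was the highest of the lines with known t(11;14) at 17.6 CPM and U266 the lowest at 0.82.

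At CCND2, which encodes cyclin D2, the signal was gathered in 1 region just upstream of the start, chr12:4380690-4382077, within an intron of an overlapping annotated transcript. It ran from 1.05 CPM in KMS12BM to 81.8 CPM in PCM6 with a median of 39.6, and a peak was listed in 19 lines. The lowest values were 1.05 CPM in KMS12BM, 1.19 in KMS21BM, 5.10 in KMS28, 6.62 in KMS12PE and 15.3 in Karpas620. All of these but KMS28, a t(4;14) line, carry known t(11;14). KMS27 (40.1 CPM) and U266 (38.0 CPM), which also carry t(11;14), lay near the median of all lines. Of the lines with t(14;16), MM1S at 57.0 and OCIMY5 at 64.6 CPM lay above it and KMS11 at 36.8 CPM below it. L363 at 69.4, KMS34 at 68.8, OPM2 at 64.2, KMS18 at 45.4 and KMS26 at 40.3 CPM also lay above that median. LP1 at 39.1 CPM and RPMI8226, the line with t(16;22), at 31.6 CPM lay below it.

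The smaller CCND2 regions followed in part. The region over the start, chr12:4382675-4383126, held 0 CPM in KMS12PE and KMS21BM, 0.53 in KMS12BM and 1.39 in KMS28, and reached 29.0 CPM in KMS34. The region 3.87 kb upstream, chr12:4378613-4379070, ran from 0 CPM in KMS12PE and KMS21BM to 29.7 CPM in KMS18. It was at 0.67 CPM in KMS27, which had 40.1 CPM at the region nearer the start, so the CCND2 regions did not go together in every line. The region 57.9 kb upstream was highest in Karpas620 (17.7 CPM) and RPMI8226 (15.1 CPM), with a median of 3.34 CPM, and the one 14.7 kb downstream of a start was highest in OPM2 (9.39 CPM).

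CCND3, which encodes cyclin D3, was open at both of its main starts in every line. The region at the start with the most counts, chr6:42017803-42018780, over exon, intron and UTR, ran from 18.4 CPM in KMS11 to 45.2 CPM in KMS27 with a median of 30.5. The region at an internal start, chr6:41908783-41909971, ran from 14.2 CPM in Karpas620 to 41.5 CPM in KMS18 with a median of 24.2. These are the 2 regions with a peak in all 22 lines. Another start region, chr6:42016185-42016761, varied more, from 2.09 CPM in OPM2 to 25.2 CPM in KMS12BM, with a peak in 9 lines. Toward the 3′ end of the gene, chr6:41903710-41904329 held 4.25 CPM in RPMI8226 to 26.6 CPM in OPM2, and the intronic region chr6:42011893-42012359 held 3.78 to 12.6 CPM.

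At MYEOV the most open region, chr11:69064438-69065365, lay 1.38 kb upstream of a start and had a peak in 21 lines, Karpas620 being the exception. It ran from 14.2 CPM in KMS20 to 47.1 CPM in KMS18, with a median of 35.0, and Karpas620 was next to the bottom at 14.6 CPM. The promoter region beside it, chr11:69065769-69066364, ran from 3.22 CPM in KMS11 to 37.1 CPM in KMS27. The remaining regions were open in particular lines. The region 5.14 kb upstream was highest in U266 (15.9 CPM), XG-6 (9.98) and Karpas620 (9.02), the region 58.7 kb upstream in KMS34 (13.8 CPM) and PE1 (12.5 CPM), and the start region at chr11:69151921-69152488 in KMS12BM (21.04 CPM). No MYEOV region separated the lines with known t(11;14) from the other known lines.

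The 6 pairs of libraries addressed how these loci differ on day 3 of lenalidomide. The libraries were compared with edgeR's quasi-likelihood test with the cell line as a block and Benjamini-Hochberg adjustment over all 37732 regions that passed the filter on low counts. Of the 36 regions, 18 passed the filter, and 3 of these changed at an adjusted p below 0.05, 2 higher and 1 lower, against 5.4% of all tested regions called (4.17% raised and 1.22% lowered). The median log2 change was 0.09 over the 18 regions and -0.01 over all tested regions. In a bulk library, more open cells and more openness per cell cannot be told apart.

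At the CCND1 region 1.65 kb upstream, the 6 pairs went from 11.8 to 36.8 CPM in Karpas620, from 7.76 to 12.7 in KMS27, from 6.61 to 13.4 in RPMI8226, from 2.75 to 5.44 in MM1S, from 1.57 to 4.07 in OPM2 and from 1.53 to 3.23 in L363. It was higher with the drug in 6 of 6 lines, by 1.16 ± 0.24 (SE) on the log2 scale (edgeR adjusted p = 0.0018). The untreated values of L363 and OPM2 were at the limit that a count of 0 allows in those libraries. Karpas620 held the highest value in both conditions and rose the most. Without the Karpas620 pair the change was 0.95 and the adjusted p 0.054.

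At the CCND3 intronic region chr6:42013428-42013811, 2.60 kb inside the gene from a start, the pairs went from 5.55 to 17.6 CPM in Karpas620, from 2.36 to 11.3 in KMS27, from 0.51 to 10.1 in L363, from 4.17 to 10.4 in OPM2, from 4.81 to 5.81 in MM1S and from 10.9 to 9.65 in RPMI8226. It was higher in 5 of 6 lines, by 1.21 ± 0.29 on the log2 scale (edgeR adjusted p = 0.0093), with RPMI8226 the exception. No untreated line had a peak there, and the only library with 1 was Karpas620 with lenalidomide. The region thus entered the table through the condition in which it was higher, which bears on its change and p-value. Without Karpas620 the log2 change was 1.09 and the adjusted p 0.071, and without KMS27 they were 1.01 and 0.067.

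At the far upstream CCND1 region, the pairs went from 21.6 to 3.63 CPM in MM1S, from 18.3 to 9.50 in OPM2, from 6.24 to 2.35 in Karpas620, from 4.05 to 2.39 in KMS27, from 1.02 to 0 in L363 and from 30.7 to 32.5 in RPMI8226. It was lower in 5 of 6 lines, by a log2 change of -0.92 ± 0.27 (edgeR adjusted p = 0.039), with RPMI8226 the exception. The untreated L363 value lay under that library's limit for a count of 0, 1.53 CPM, so the direction in L363 lies within counting error. MM1S fell by the most CPM, and without it the log2 change was -0.55 and the adjusted p 0.35. Without RPMI8226 the log2 change was -1.49 and the adjusted p 0.0014. Leaving out another pair took the adjusted p past the threshold with a log2 change close to the full one, namely -0.87 without Karpas620 (0.10), -0.93 without OPM2 (0.098), -0.95 without KMS27 (0.058) and -0.89 without L363 (0.058).

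The CCND2 region just upstream of the start did not pass the threshold. It went from 69.4 to 43.3 CPM in L363, from 57.0 to 32.3 in MM1S, from 64.2 to 55.2 in OPM2, from 40.1 to 29.1 in KMS27, from 15.3 to 14.5 in Karpas620 and from 31.6 to 37.9 in RPMI8226. It was lower in 5 of 6 lines with a log2 change of -0.35 ± 0.13 (edgeR adjusted p = 0.10). Without RPMI8226 the log2 change was -0.48 and the adjusted p 0.014. Leaving out any other pair kept the adjusted p above the threshold, from 0.10 without Karpas620 to 0.38 without MM1S. With DESeq2 on all 6 pairs the adjusted p was 0.37. RPMI8226, the exception at 3 of these 4 regions, went from 2117764 to 4248017 total counts between its libraries, and the part of this depth difference in the result was not tested.

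**Figure D4:**
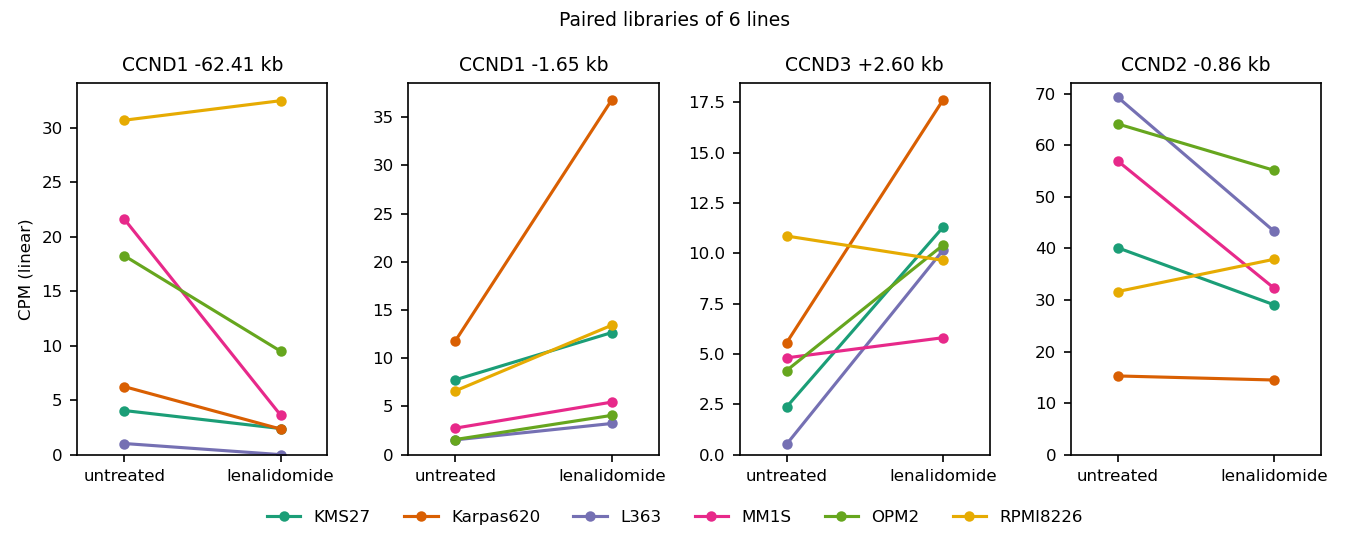
CPM (y axis, linear, own scale per panel) of 4 regions in the untreated and lenalidomide libraries of the same line (x axis), with 1 line joining each pair. The CCND1 region at -1.65 kb is higher in 6 of 6 lines and the CCND3 region at +2.60 kb in 5 of 6, while the CCND1 region at -62.41 kb and the CCND2 region at -0.86 kb are lower in 5 of 6.

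The main start regions of the 3 cyclins held values that did not pass the test. The CCND1 start region had a log2 change of 0.06 ± 0.28 (edgeR adjusted p = 0.95), the CCND2 start region 0.09 ± 0.18 (adjusted p = 0.87) and the CCND3 start region with the most counts -0.21 ± 0.12 (adjusted p = 0.40), the last lower in 6 of 6 lines. The most open MYEOV region had a log2 change of 0.28 ± 0.12 (adjusted p = 0.19). Summed over all regions of a gene, the mean log2 change over the 6 lines was -0.07 ± 0.61 (SD, n = 6) for CCND1, -0.19 ± 0.26 for CCND2, 0.12 ± 0.25 for CCND3 and 0.03 ± 0.39 for MYEOV. The sum of CCND1 was higher in 3 lines and lower in 3, from -1.18 in MM1S to 0.56 in Karpas620, so its regions gave no shared direction for the gene. The sum of CCND2 was lower in 5 of 6 lines, that of CCND3 higher in 5 of 6 and that of MYEOV higher in 3. The CCND3 sum includes the intronic region that had a peak in 1 lenalidomide library alone. In the lines with known t(11;14), the intronic CCND1 region went from 9.02 to 5.87 CPM in Karpas620 and from 10.1 to 8.21 CPM in KMS27, and its low counts elsewhere kept it out of the test.

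The other genes of the pathway from D-type cyclins to E2F were read at their promoter region with the most counts. Of 17 genes listed, 15 had such a region, 14 were tested and 0 were called by edgeR, beside 5.4% of all tested regions, so the count lies near that share. Those of CDK4, the partner kinase of the D-type cyclins, CCNE2, RBL2 and E2F3 had a peak in all 22 untreated lines. CDK4 had a log2 change of -0.14 ± 0.09 (edgeR adjusted p = 0.45) and CDK6, its homologue, -0.13 ± 0.09 (0.52). The values farthest from 0 were -0.55 ± 0.19 at E2F1 (0.098), a target and mediator of RB1 release, and -0.34 ± 0.11 at RBL2 (0.069), a relative of RB1. CDKN2C, which encodes the CDK4 and CDK6 inhibitor p18, ran from 0 to 72.7 CPM over the untreated lines and was not tested. Within 500 kb of the cyclin genes, 0 of 5 tested neighbouring regions were called at CCND1, 0 of 13 at CCND2 and 1 of 24 at CCND3, all near the 5.4% called among all tested regions.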

How the data were processed

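ATAC-seq was performed by the authors on myeloma cell lines. Reads were aligned to GRCh37 and peaks were called per library and merged over the 28 libraries. The submitters' processing notes name Bowtie2 2.2.6, SAMtools 1.7 and MACS2 2.1.0.20151222. Marking of duplicates with SAMtools is stated in the study's methods for ChIP-seq, under a heading shared with ATAC-seq. Whether duplicates were removed, read ends shifted or fragments counted is not given in the sources used here. The deposited files hold raw counts per region, RPM computed by the authors from those counts (identical to the CPM computed here) and a table of whole numbers from 0 to 4 deposited without a definition, read here as the number of a library's peaks in the region. Regions were assigned to genes by the deposited nearest start. Promoter regions lay within 1 kb.

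Lenalidomide was tested on counts with edgeR 4.0.16 (quasi-likelihood, TMM, filterByExpr, cell line as a block because both libraries of a pair come from the same line) in R 4.3.3, and with DESeq2 1.42.0 as an alternative. P-values set the drug's change against the variation left after the cell line block, with the dispersion moderated over all tested regions. The SE was derived from the F statistic of the same test. Neither thus measures the spread of the change between the 6 lines at a region alone. Other steps used Python 3.11.15, pandas 2.3.3, numpy 2.4.6 and scipy 1.17.1. A pseudocount of 1 was used for log2 of sums. Regions described in full were, per gene, the promoter region and the 3 distal regions with the most counts, and all regions called, open in every line or not overlapping between sets. Exceptions to this rule were chosen after their values were seen. The members, lists and tests were chosen with earlier results of these data known. Results for 1 marker gene and the sequence of 1 region are not reported here.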

Additional observations from a re-analysis of the deposited data

Results flagged for a closer look

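Among the 6 lines with a lenalidomide library, 14 sets of values were examined for a line far from the rest, of which chance flags about 1 in 20, or 0.7 sets. At the far upstream CCND1 region RPMI8226 stood apart among the lenalidomide libraries at 32.5 CPM, with the next line, OPM2, at 9.50 CPM. At the CCND1 region 1.65 kb upstream Karpas620 stood apart at 36.8 CPM, with the next line, RPMI8226, at 13.4 CPM. Its log2(CPM + 1) change there, 1.56, was also apart from those of the other 5 lines, but the log2 ratio with no pseudocount was 1.64 beside 1.38 in OPM2, so the distance rests on the pseudocount at low counts.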

How the results depend on the processing

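The count of 3 called regions fell to 0 with at least 10 counts required in each library, to 0 with no replicate block, and lay between 0 and 4 when 1 pair was left out, 0 without Karpas620, 1 without KMS27 and 4 without RPMI8226. The stricter filter kept 13790 of 37732 regions and none of the 3, so its 0 was set by the filter. Without the block the log2 changes were 1.23 and 1.19 at the CCND1 region 1.65 kb upstream and the CCND3 region, against 1.16 and 1.21, and -0.65 against -0.92 at the far upstream CCND1 region. The pairing comes from the cell line, so the block is part of the design. Over all tested regions, 2036 were called with the block and 0 without it (440 at an unadjusted p below 0.05), 839 by DESeq2, 4092 with no filter, 587 with the stricter filter and 1067 to 2503 with 1 pair left out. DESeq2 called 2 of the 3 regions, leaving the far upstream CCND1 region at an adjusted p of 0.077. The count of CCND1 and MYEOV regions with no overlap between lines with known t(11;14) and other known lines went from 1 to 2 with local scaling. It was 1 to 2 when 1 line with known t(11;14) was left out, the added region being the CCND1 region 1.65 kb upstream in each case. The other known lines were not left out in turn, and the share of all regions was not computed under these settings. At the intronic CCND1 region the lowest line with known t(11;14) stood 2.70 times above the highest other known line, and 6.37 times without U266. Medians of the gene sums and their lenalidomide changes moved by less than 1 SD under each scaling and pseudocount tried. The alternatives for the changes of the sums, the range of the CCND2 sum without KMS21BM and the log2 ratio with no pseudocount were chosen after seeing the data. At 1599857 to 5564534 counts a library, values near 1 CPM rest on a few counts.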

Other observations

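Regions at starts of other genes were ranked by Spearman correlation of CPM with the main promoter region of each gene over the 22 untreated lines, among 19033 candidates at least 1 Mb away, as a description. The points share library depth and copy number of the line. The most alike were MICAL1 for CCND1 (rho 0.76), CLEC7A for CCND2 (0.81), DSTYK for CCND3 (0.71) and CCDC132 for MYEOV (0.74). Several of the leading regions lie on the same chromosome as the gene, among them CWF19L2, PUS3 and RDX on chromosome 11 for CCND1, CLEC7A, DCP1B and CD27-AS1 on chromosome 12 for CCND2, and BTBD9 on chromosome 6 for CCND3. DSTYK, MDM4 and NUCKS1, all on chromosome 1, were among the 5 most like CCND3.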
